A study of Mus musculus with 6 samples.

Results

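The 43 genes examined here encode the proteins that copy chromosomal DNA. They were taken by symbol from a list that holds the origin recognition subunits, the helicase loaders, the MCM helicase, its activators, the replicative polymerases and primase, the sliding clamp and its loader, the proteins of single-stranded DNA and Okazaki fragments, enzymes of deoxynucleotide supply and a pair of E2F factors. All 43 were found, among 20856 genes with values in the deposited table, and all 43 passed the filter on low values that left 11617 genes for testing. The rule itself uses no measured value.

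The RNA came from 6 untreated cell lines derived from liver tumors of C57BL/6 mice. The tumors were started in the liver of living mice by injecting plasmids into the tail vein under hydrodynamic pressure: a *Myc* transposon together with the plasmid px330, which expresses Cas9 and guide RNAs for a short time. The guides targeted *Trp53* in 3 lines (*Myc*; sg*Trp53*) and *Kmt2c*, the gene for the histone methyltransferase MLL3, in the other 3 (*Myc*; sg*Kmt2c*). The comparison asks how transcripts differ between lines in which *Trp53* and lines in which *Kmt2c* was targeted.

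*Myc* is present in both groups, and neither group has both targeted genes intact, so a value of one group is relative to the other and not to a normal liver cell. Each line comes from 1 tumor and was kept in culture until fibroblasts were judged by eye to be gone. The study's resource list names the lines of a genotype as derived from different mice, while the labels name sg*Kmt2c* replicates 2 and 3 as 2A and 2T1, and whether these share a mouse was not tested. With lines as the replicates, the p-values below weigh a difference between the groups against the spread between these lines. In the model fits both groups share the estimate of that spread.

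DNA replication starts with licensing. The origin recognition complex, with CDC6 and CDT1, loads the MCM helicase onto origins before S phase, and CDC45 and the GINS complex turn the loaded ring into an active helicase. DNA polymerase alpha and primase then lay primers, polymerases epsilon and delta extend the strands with the clamp PCNA, and FEN1 and ligase I join Okazaki fragments. E2F factors bind the promoters of many of these genes and raise their transcription in cells that enter the cycle. Most hepatocytes of an adult liver are out of the cycle, and these genes are known as markers of dividing cells in regenerating liver and in liver tumors.

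Because E2F factors are known to act at these promoters, the promoters of members on which the results turn are shown first. RefSeq promoters (build GRCm38.p6, 250 bases before to 50 bases after a transcription start) were matched for 36 of the 43 members. *Mcm4*, *Gins1*, *Gins2*, *Gins4*, *Prim2*, *Pole* and *Rfc2* had no entry. The letters searched on both strands were TTTCGCGC, TTTGGCGC, TTTCCCGC and TTTGCCGC, which are common forms of an E2F-type site. At least 1 match lay in the promoters of 15 of 36 members (41.7%), against 421 of 8528 tested genes with a promoter in the table (4.94%). The word TTTGAA, known from promoters of mitotic genes as the CHR element, was found in 5 of 36 members (13.9%) and in 13.6% of those tested genes, and it overlapped no E2F-type match. A match is a run of letters and does not show that a factor binds there. The 5 promoters below were chosen after the values were seen. *Orc1*, *Rpa2* and *Mcm6* were the 3 members lowest against the sg*Trp53* mean in sg*Kmt2c* replicate 1 apart from *Cdc6*. *Rrm2* and *E2f2*, at its first listed start, were not low there. *Cdc6*, whose promoter held 1 match, is not shown. Its RefSeq start lies inside its gene as deposited, and so do those of *Orc1*, *Rpa2* and *Rrm2*. The last bases shown for these 3 therefore fall within the deposited genes. Each sequence is the 150 bases before the RefSeq start, 5′ to 3′ on the strand of the gene. E2F-type matches on either strand are in capitals.
*Orc1* (chr4:108579304-108579453, + strand): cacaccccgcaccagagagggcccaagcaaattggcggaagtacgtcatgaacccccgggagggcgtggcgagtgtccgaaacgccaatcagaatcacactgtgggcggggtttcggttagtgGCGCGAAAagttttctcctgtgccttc
*Rpa2* (chr4:132768210-132768359, + strand): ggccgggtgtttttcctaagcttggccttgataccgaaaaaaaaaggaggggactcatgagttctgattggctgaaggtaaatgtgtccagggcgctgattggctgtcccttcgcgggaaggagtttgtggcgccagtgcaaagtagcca
*Mcm6* (chr1:128359706-128359855, - strand): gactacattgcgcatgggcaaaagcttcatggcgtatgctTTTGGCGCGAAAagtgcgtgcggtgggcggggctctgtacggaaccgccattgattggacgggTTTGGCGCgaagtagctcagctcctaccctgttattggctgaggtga
*Rrm2* (chr12:24708104-24708253, + strand): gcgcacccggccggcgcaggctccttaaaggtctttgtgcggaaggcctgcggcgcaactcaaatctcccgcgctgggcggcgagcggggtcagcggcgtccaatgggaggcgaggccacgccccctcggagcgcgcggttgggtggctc
*E2f2* (chr4:136172124-136172273, + strand): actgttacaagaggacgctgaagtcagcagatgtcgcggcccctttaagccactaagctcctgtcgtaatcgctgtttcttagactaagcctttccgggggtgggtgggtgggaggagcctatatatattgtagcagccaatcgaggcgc
The *Mcm6* promoter held 3 matches, in which TTTGGCGC and, on the other strand, TTTCGCGC share bases. The *Rpa2* and *Rrm2* promoters held none of these words in their 300 bases, and that of *E2f2* held 1 match, which lies outside the bases shown. Of members under 0.5 times the lowest sg*Trp53* line in sg*Kmt2c* replicate 1, 10 of 24 with an entry held a match, and so did 5 of 12 other members, 41.7% in each case.

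Values are RPKM, the reads of a gene divided by its listed transcript length and scaled to the reads counted on genes in the library, given in the order of replicates 1, 2 and 3. Fold changes are differences of group means of log2(RPKM + 1), sg*Kmt2c* minus sg*Trp53*, fitted with limma over all 11617 genes and adjusted after Benjamini-Hochberg, a scale that understates the change of low genes. Reads on genes ranged from 5312182 to 6878625 in the sg*Trp53* libraries and from 3680068 to 4704539 in the sg*Kmt2c* libraries, and the sample sheets list the same flow cell for all 6. *Trp53* was at 17.2, 17.6 and 19.4 RPKM with sg*Trp53* and 92.2, 124 and 121 RPKM with sg*Kmt2c*, so the targeted gene was lower in all 3 lines whose guides targeted it. *Kmt2c* was at 24.2, 18.4 and 19.2 RPKM with sg*Trp53* and 19.7, 24.97 and 9.51 RPKM with sg*Kmt2c*. These ranges overlapped, and as guide-directed cuts need not lower a transcript, its level is no check of the sg*Kmt2c* labels.

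The library of sg*Kmt2c* replicate 1 stood apart from the other 5. Its Spearman correlations with them across tested genes lay between 0.757 and 0.828, against 0.882 to 0.948 for all other pairs. It also carried the most transcript of hepatocyte and epithelial genes. The RPKM of 11 hepatocyte markers summed to 5649 in this line and to between 2.40 and 336 in the others, and 9 of the 11 were highest there. *Hnf4a*, a hepatocyte transcription factor, was at 24.7, 3.49 and 15.8 RPKM with sg*Trp53* and 1186, 0.629 and 169.9 RPKM with sg*Kmt2c*. *Apob*, which encodes an apolipoprotein made by hepatocytes, reached 4385 RPKM in sg*Kmt2c* replicate 1 and at most 129 RPKM elsewhere. These 2 genes made up most of the sum of 5649 RPKM, with 23099 reads for *Apob* and 2409 for *Hnf4a* in that line. The sum depends on their listed transcript lengths, which were not compared with annotated transcripts. *Fgb*, another of the markers, was at 20.1 RPKM in sg*Kmt2c* replicate 1 and higher, at 32.5 RPKM, in replicate 3. *Alb*, the albumin gene and another of the markers, stayed between 0.644 and 4.36 RPKM in all 6 lines. The 8 epithelial markers summed to 6808 RPKM in sg*Kmt2c* replicate 1 and to between 68.9 and 1024 RPKM elsewhere, and 6 of the 8 were highest there. Most of that sum came from the keratin genes *Krt8*, *Krt18*, *Krt19* and *Krt7*. *Cldn7* was at 0 RPKM in all 3 sg*Kmt2c* lines. *Sox9* was at 6.36 RPKM in sg*Kmt2c* replicate 1, inside the sg*Trp53* range. The fibroblast markers other than *Vim* summed to 0.282 RPKM there, with 7 of 10 at 0, and to between 18.5 and 996 RPKM in the other lines. Immune markers summed to between 2.99 and 20.4 RPKM and endothelial markers to at most 0.635 RPKM in all lines. In sg*Kmt2c* replicate 1 the high hepatocyte and epithelial sums stood beside low values of the replication genes, described next. That inverse order did not extend to sg*Kmt2c* replicates 2 and 3. Their hepatocyte sums were 2.40 and 336 RPKM, and the medians of their replication genes were 26.1 and 34.1 RPKM. The part of the marker values in the replication results was not tested. In RNA from a whole culture, fewer cells that express a gene and less RNA per cell cannot be told apart.

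Replication genes were lower in the mean of the sg*Kmt2c* lines than in that of the sg*Trp53* lines, but no single gene passed the test. Of the 43 members, 39 had a log2 fold change below 0 and 4 above (58.0% of all tested genes were below 0). The median was -0.59, against -0.086 over all genes tested. None reached an adjusted p-value under 0.05 (0.129% of all genes did, 15 in number). The adjusted p-values of the members lay between 0.569 and 0.987 (limma). At an unadjusted p-value under 0.05, 1 member was lower (5.34% of all genes) and 0 higher (3.25%). Voom on the recovered reads gave the same counts of members, while 4 of all genes passed adjustment. The lines of the groups did not overlap for 8 members, all lower in the sg*Kmt2c* lines (10.4% of all genes), and for 0 that were higher (5.72%). The fits were also wide: the 95% interval lay within a 2-fold change in either direction for 6 members, and it reached a 2-fold decrease for 34.

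The 3 sg*Kmt2c* lines did not share the difference equally. sg*Kmt2c* replicate 1 was the lowest of the 6 libraries for 40 of the 43 members (35.9% of all genes tested), and for 28 it was under 0.5 times the lowest sg*Trp53* line (13.4%). The median member stood at 33.3% of the sg*Trp53* mean in that line, where the median gene stood at 87.5%. In sg*Kmt2c* replicate 2 the median member was at 85.7% and 2 members, *Gins2* and *Pole*, were under 0.5 times the lowest sg*Trp53* line (5.66%). In that line 26 members lay below every sg*Trp53* line (35.4% of all genes) and 4 above every one (26.5%). In sg*Kmt2c* replicate 3 the median member was at 106%, 0 members were that low (3.54%), 8 lay below every sg*Trp53* line (29.6%) and 14 above (25.9%). Without sg*Kmt2c* replicate 1 the median log2 fold change of the members was -0.065, against -0.044 over all genes, with 20 members above 0 and 23 below (54.4% of all genes). The sign turned for 16 members. That line was singled out after the values were seen. The intervals lay within a 2-fold change for 36 of 43 members, and *Pole2* alone had an unadjusted p-value under 0.05, as a higher member (3.87% of all genes). The count of lower members was 0 (5.35%), and none passed adjustment (0.0614% of all genes did, limma). Without sg*Kmt2c* replicate 3 instead, the median log2 fold change of the members was -0.88 and 9 were lower at an unadjusted p-value under 0.05 (12.7% of all genes differed in either direction), with adjusted p-values of 0.229 to 0.382 (limma).

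**Figure D1:**
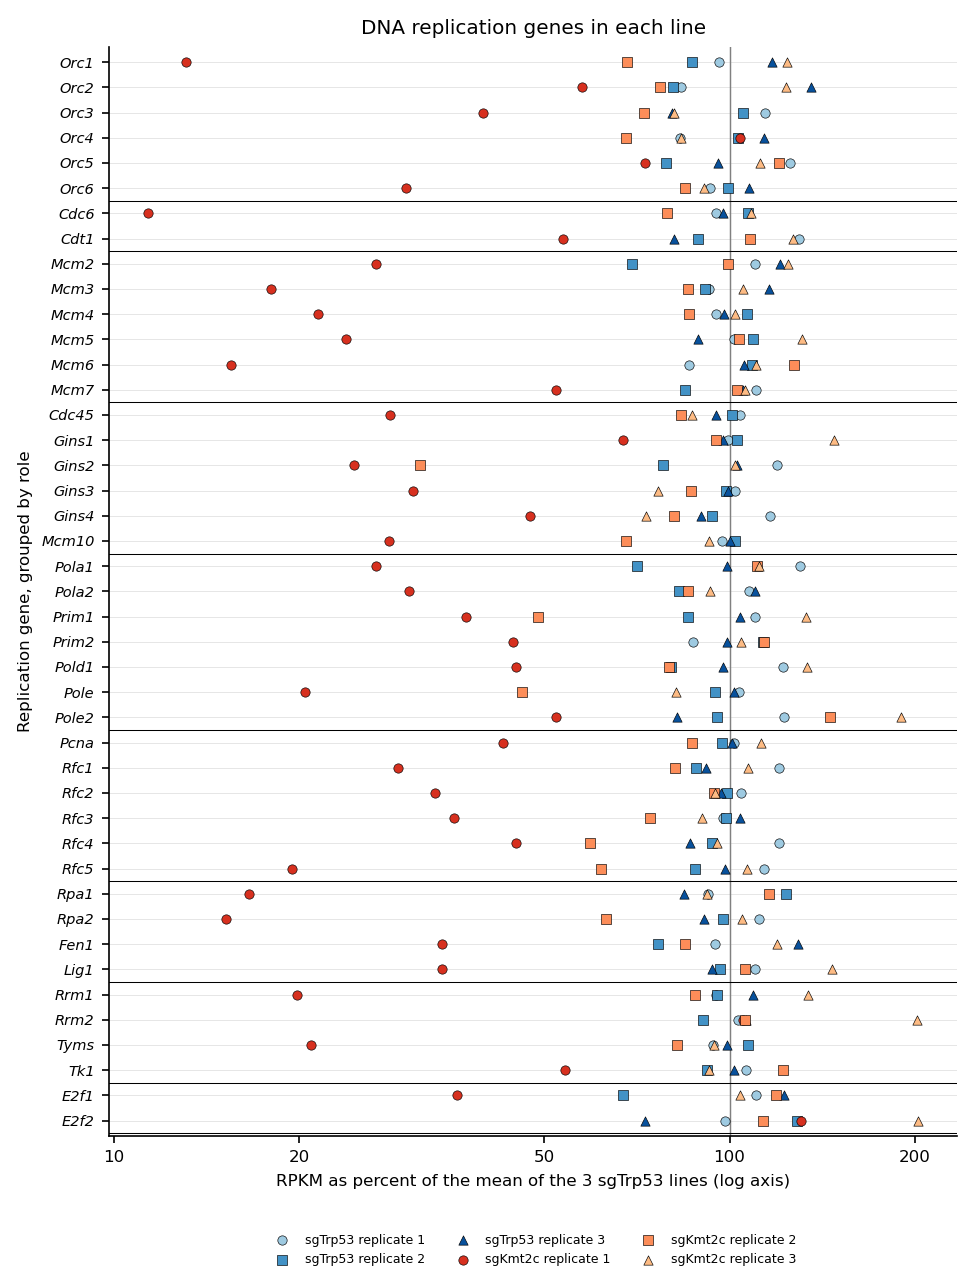
RPKM of each of the 43 replication genes in each of the 6 lines, as percent of the mean of the 3 sg*Trp53* lines, on a log axis. Genes are grouped by role, with 1 symbol per line and a vertical line at 100%. sg*Kmt2c* replicate 1 (dark red circles) lies to the left for 40 genes, while *Orc4* (104%), *Rrm2* (105%) and *E2f2* (131%) lie near or above 100%.

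**Figure D2:**
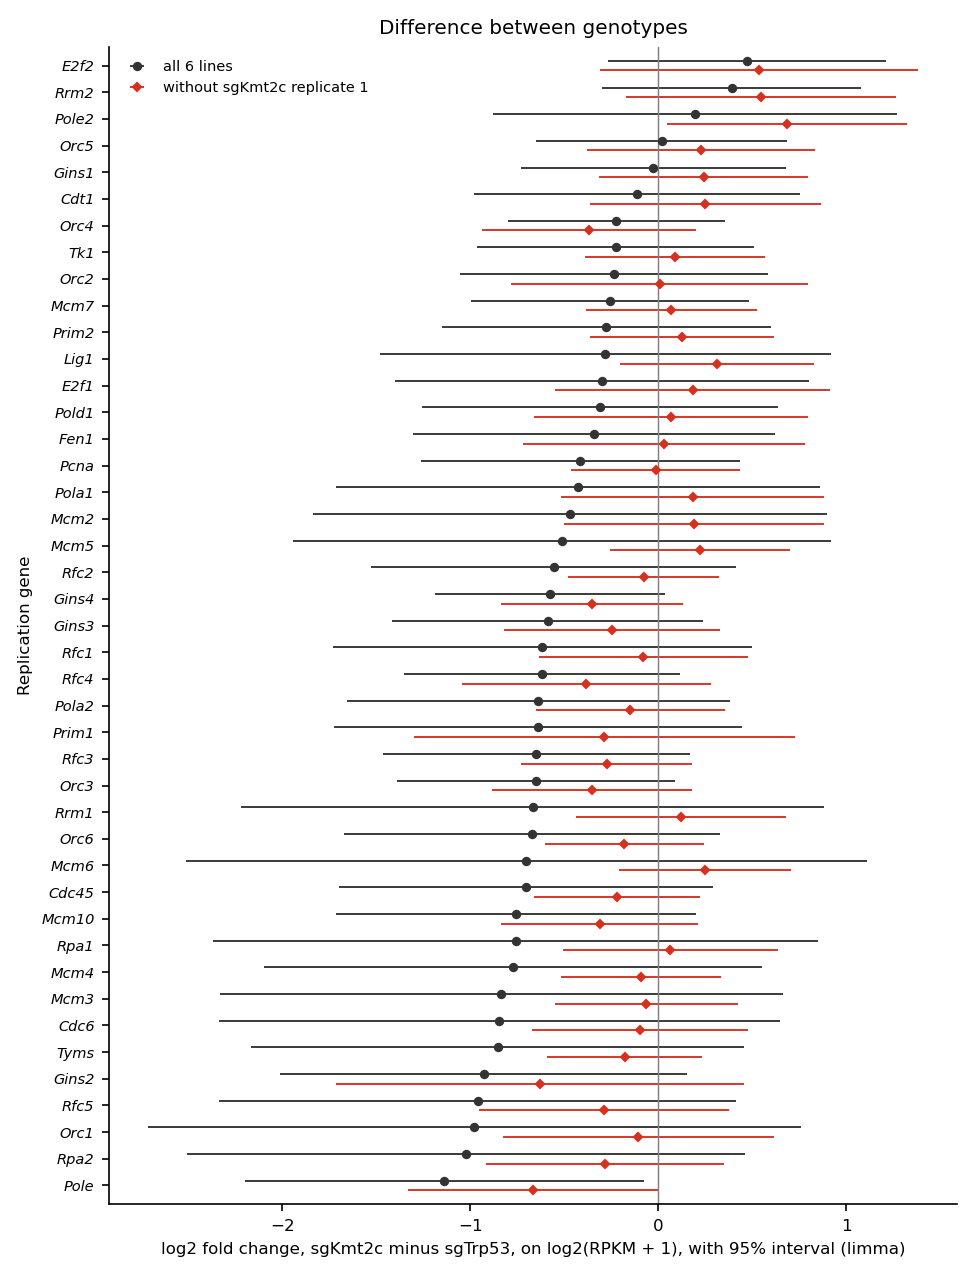
Log2 fold change of each replication gene between genotypes, sg*Kmt2c* minus sg*Trp53*, with its 95% interval from limma. Black circles use all 6 lines and red diamonds leave out sg*Kmt2c* replicate 1. With all lines the estimates run from -1.14 to 0.47, and without that line from -0.66 to 0.69 with shorter intervals for most genes.

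The origin recognition complex marks the sites where replication can begin, and its 6 subunit genes were uneven. The median subunit stood at 48.7% of the sg*Trp53* mean in sg*Kmt2c* replicate 1. *Orc1*, which encodes the subunit whose level changes with the cell cycle, was at 42.2, 38.2 and 51.4 RPKM with sg*Trp53* and 5.75, 30.00 and 54.4 RPKM with sg*Kmt2c*. It was the lowest of the subunits against the sg*Trp53* mean in sg*Kmt2c* replicate 1, at 13.1%, while sg*Kmt2c* replicate 3 was the highest of all 6 lines. That low value rests on 12 reads, the fewest of any member in any library. *Orc6*, whose protein is the smallest subunit, was at 34.8, 37.3 and 40.3 RPKM with sg*Trp53* and 11.2, 31.7 and 34.1 RPKM with sg*Kmt2c*. All 3 sg*Kmt2c* lines lay below all 3 sg*Trp53* lines, by little in replicates 2 and 3 (log2 fold change -0.67, SE 0.418, adjusted p = 0.677 with limma). *Orc4*, an ATP-binding subunit, was at 13.03, 16.2 and 17.8 RPKM with sg*Trp53* and 16.3, 10.7 and 13.1 RPKM with sg*Kmt2c*. Here sg*Kmt2c* replicate 1 lay inside the sg*Trp53* range, and sg*Kmt2c* replicate 2 was the lowest line. *Orc2*, *Orc3* and *Orc5* stood at 57.6%, 39.8% and 72.9% of the sg*Trp53* mean in sg*Kmt2c* replicate 1. *Orc5* was the only subunit with a positive log2 fold change, at 0.018 with a 95% interval of -0.65 to 0.69.

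The helicase loaders CDC6 and CDT1 act with the origin recognition complex to place MCM rings on DNA. *Cdc6* was at 9.24, 10.4 and 9.50 RPKM with sg*Trp53* and 1.10, 7.70 and 10.5 RPKM with sg*Kmt2c*. It was the member farthest below the sg*Trp53* mean in sg*Kmt2c* replicate 1, at 11.4%, and the other 2 sg*Kmt2c* lines lay close to the sg*Trp53* lines. *Cdt1*, whose protein is held back by geminin after licensing, was at 57.2, 39.2 and 35.8 RPKM with sg*Trp53* and 23.7, 47.6 and 55.8 RPKM with sg*Kmt2c*. sg*Kmt2c* replicate 1 was again lowest, but sg*Kmt2c* replicates 2 and 3 lay within the sg*Trp53* range. The log2 fold changes were -0.85 for *Cdc6* and -0.11 for *Cdt1* with all lines, and -0.096 and 0.25 without sg*Kmt2c* replicate 1.

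The 6 genes of the MCM helicase, the ring that unwinds the duplex, were each lowest in sg*Kmt2c* replicate 1. Their summed RPKM was 118 in sg*Kmt2c* replicate 1 and between 408 and 477 in the other 5 lines. *Mcm6* was at 83.95, 106 and 103 RPKM with sg*Trp53* and 15.2, 124 and 108 RPKM with sg*Kmt2c*. Its level in sg*Kmt2c* replicate 1 was 15.5% of the sg*Trp53* mean, and sg*Kmt2c* replicate 2 was the highest line of all. *Mcm2*, the gene with the lowest mean RPKM of the ring, was at 55.03, 34.7 and 60.3 RPKM with sg*Trp53* and 13.4, 49.8 and 62.3 RPKM with sg*Kmt2c*. *Mcm3* was at 65.1, 64.2 and 81.6 RPKM with sg*Trp53* and 12.7, 60.2 and 74.02 RPKM with sg*Kmt2c*. *Mcm4* and *Mcm5* stood at 21.4% and 23.8% of the sg*Trp53* mean in sg*Kmt2c* replicate 1, and between 85.9% and 131% in the other sg*Kmt2c* lines. So 5 of the 6 subunits were far below the sg*Trp53* lines in sg*Kmt2c* replicate 1 and near them in the other sg*Kmt2c* lines. *Mcm7*, the gene with the highest mean RPKM of the ring, was at 109.8, 84.1 and 105 RPKM with sg*Trp53* and 52.1, 102 and 105 RPKM with sg*Kmt2c*. It was less low in sg*Kmt2c* replicate 1, at 52.3% of the sg*Trp53* mean. The ratio of *Mcm7* to the median of the other 5 subunits was 4.11 in sg*Kmt2c* replicate 1 and between 1.34 and 1.96 in the other lines. *Mcm7* overlaps the listed genes *Cops6* and *Ap4m1*, and as the use of strand in counting is not stated, reads of the 3 genes may not be told apart. No subunit differed by the test with all lines, and the log2 fold changes ran from -0.83 for *Mcm3* to -0.26 for *Mcm7*. Without sg*Kmt2c* replicate 1 the signs of *Mcm2*, *Mcm5*, *Mcm6* and *Mcm7* turned, and the 6 values lay between -0.091 and 0.25.

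**Figure D3:**
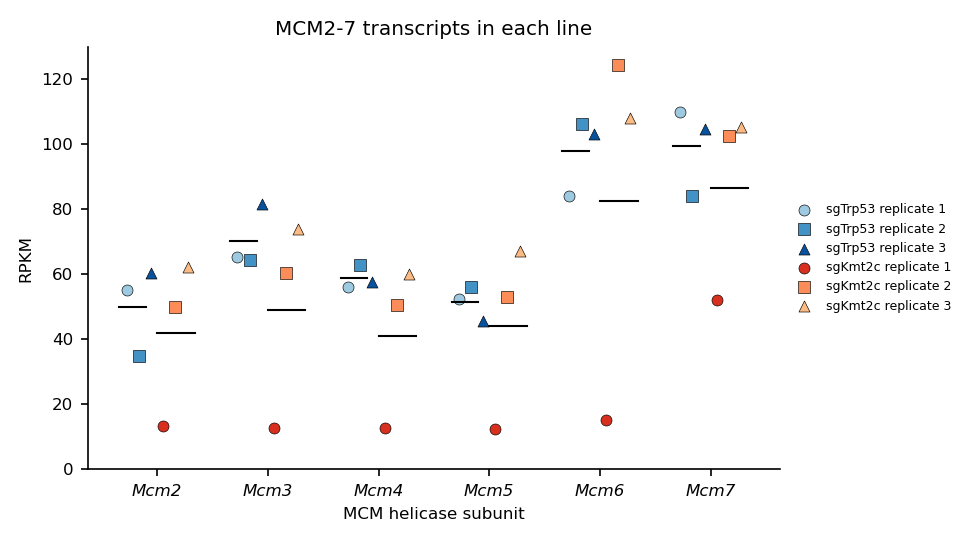
RPKM of the 6 MCM helicase genes in each line, on a linear axis from 0, with 1 symbol per line and a bar at the mean of each genotype. The red circles of sg*Kmt2c* replicate 1 lie between 12.2 and 15.2 RPKM for 5 genes and at 52.1 RPKM for *Mcm7*, below all other lines for each gene.

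CDC45, the 4 GINS proteins and MCM10 turn the loaded ring into a moving helicase. In 4 of these 6 genes every sg*Kmt2c* line lay below every sg*Trp53* line (10.4% of all genes). *Cdc45* was at 21.7, 21.05 and 19.8 RPKM with sg*Trp53* and 5.84, 17.3 and 18.1 RPKM with sg*Kmt2c*. *Gins3* was at 5.57, 5.38 and 5.42 RPKM with sg*Trp53* and 1.67, 4.72 and 4.17 RPKM with sg*Kmt2c*. *Gins4* was at 40.1, 32.2 and 30.96 RPKM with sg*Trp53* and 16.3, 28.04 and 25.2 RPKM with sg*Kmt2c*. In these 3 genes sg*Kmt2c* replicates 2 and 3 lay under the lowest sg*Trp53* line, and sg*Kmt2c* replicate 1 lay farther under it. *Mcm10*, which links the helicase to DNA polymerase alpha, was at 16.8, 17.7 and 17.4 RPKM with sg*Trp53* and 4.84, 11.8 and 16.01 RPKM with sg*Kmt2c*. Its log2 fold change was -0.76 (SE 0.402, adjusted p = 0.639, limma), and -0.31 without sg*Kmt2c* replicate 1. For each of these 4 genes the exact two-sided permutation test gave p = 0.1, the smallest that 3 lines against 3 allow. Lines that do not overlap always give this value, so it adds nothing to the non-overlap. *Gins2* was at 8.15, 5.34 and 7.02 RPKM with sg*Trp53* and 1.68, 2.15 and 6.96 RPKM with sg*Kmt2c*. It was low in sg*Kmt2c* replicates 1 and 2 alike, at 24.6% and 31.4% of the sg*Trp53* mean, and at 102% in sg*Kmt2c* replicate 3. *Gins1*, the gene with the highest mean RPKM of this role, was at 59.5, 61.5 and 58.2 RPKM with sg*Trp53* and 40.1, 56.8 and 88.3 RPKM with sg*Kmt2c*. sg*Kmt2c* replicate 1 was lowest and sg*Kmt2c* replicate 3 highest, and the log2 fold change was -0.026, which turned to 0.052 under median-of-ratios scaling.

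The polymerases and primase make the new strands, and with all 6 lines *Pole* was the member with the largest difference and the lowest p-value. With sg*Kmt2c* replicates 2 and 3 averaged, the difference of *Orc1* (-1.39) was larger than that of *Pole* (-1.35). *Pole* encodes the catalytic subunit of DNA polymerase epsilon, which copies the leading strand, and lies at chr5:110286306-110337474 (GRCm38). It was at 25.7, 23.5 and 25.1 RPKM with sg*Trp53* and 5.07, 11.4 and 20.3 RPKM with sg*Kmt2c*. The groups did not overlap: the means were 24.8 ± 1.16 RPKM in the sg*Trp53* lines and 12.2 ± 7.64 RPKM in the sg*Kmt2c* lines (SD, n = 3 lines each), and the sg*Kmt2c* lines were spread widely while the sg*Trp53* lines lay close together. The log2 fold change was -1.14 (SE 0.444, 95% interval -2.20 to -0.076), with an unadjusted p of 0.0391 and an adjusted p of 0.569 from limma. An exact two-sided permutation test of the same 6 values gave p = 0.1, its smallest possible value, which follows from the groups not overlapping. Without sg*Kmt2c* replicate 1 the log2 fold change was -0.66 (95% interval -1.33 to 0.0021). The overlapping entries *Gm15791* and *Gm15792* could share its reads. *Pole2*, the second subunit of the same enzyme and the gene with the lowest mean RPKM of this role, lay the other way in 2 of the lines. It was at 9.96, 7.76 and 6.68 RPKM with sg*Trp53* and 4.26, 11.8 and 15.5 RPKM with sg*Kmt2c*. sg*Kmt2c* replicates 2 and 3 lay above all sg*Trp53* lines and sg*Kmt2c* replicate 1 below them. Its log2 fold change was 0.20 with all lines, 0.69 without sg*Kmt2c* replicate 1 (unadjusted p = 0.0393, adjusted p = 0.519 with limma) and -0.14 without sg*Kmt2c* replicate 3.

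DNA polymerase alpha and primase begin each strand. *Prim1*, the catalytic primase subunit, had the highest mean RPKM of this role and was at 37.5, 29.2 and 35.5 RPKM with sg*Trp53* and 12.7, 16.6 and 45.4 RPKM with sg*Kmt2c*. It was low in sg*Kmt2c* replicates 1 and 2 and highest of all lines in sg*Kmt2c* replicate 3, a pattern shared with *Gins2* apart from the high value in replicate 3. *Prim2*, the other primase subunit, was at 44.5%, 114% and 104% of the sg*Trp53* mean in the 3 sg*Kmt2c* lines. *Pola1* and *Pola2*, the subunits of polymerase alpha, stood at 26.6% and 30.1% in sg*Kmt2c* replicate 1 and at 111% and 85.5% in sg*Kmt2c* replicate 2. *Pold1*, the catalytic subunit of polymerase delta on the lagging strand, was at 29.6, 19.4 and 23.6 RPKM with sg*Trp53* and 10.9, 19.3 and 32.4 RPKM with sg*Kmt2c*. sg*Kmt2c* replicate 1 was the lowest line and sg*Kmt2c* replicate 3 the highest. The log2 fold changes of these 5 genes ran from -0.64 for *Prim1* and *Pola2* to -0.28 for *Prim2*, each with a 95% interval that included 0.

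PCNA is the ring that holds polymerases on DNA, and replication factor C loads it. *Pcna* had the highest mean RPKM of all 43 members and was at 263, 251 and 261 RPKM with sg*Trp53* and 111, 225 and 291 RPKM with sg*Kmt2c*. The sg*Trp53* lines differed little among themselves, and the sg*Kmt2c* lines ran from 42.9% to 113% of their mean. *Rfc2* was at 39.9, 37.9 and 37.00 RPKM with sg*Trp53* and 12.7, 36.1 and 36.2 RPKM with sg*Kmt2c*. *Rfc3* was at 25.1, 25.4 and 26.8 RPKM with sg*Trp53* and 9.18, 19.2 and 23.3 RPKM with sg*Kmt2c*. The groups did not overlap for either, but sg*Kmt2c* replicates 2 and 3 of *Rfc2* lay less than 1 RPKM under the lowest sg*Trp53* line. *Rfc5* was at 138, 107 and 119 RPKM with sg*Trp53* and 23.6, 75.2 and 129 RPKM with sg*Kmt2c*, and stood at 19.5% of the sg*Trp53* mean in sg*Kmt2c* replicate 1. *Rfc1*, the large subunit, and *Rfc4* stood at 28.9% and 44.95% there. All 6 genes of this role had a negative log2 fold change both with all lines, from -0.96 to -0.41, and without sg*Kmt2c* replicate 1, from -0.38 to -0.014. All 6 intervals included 0, with all lines and without that one.

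Single-stranded DNA is covered by RPA, and FEN1 and ligase I trim and join Okazaki fragments. The 4 genes of this role were all under 0.5 times the lowest sg*Trp53* line in sg*Kmt2c* replicate 1. *Rpa2* was at 38.6, 33.8 and 31.5 RPKM with sg*Trp53* and 5.27, 21.8 and 36.3 RPKM with sg*Kmt2c*. *Rpa1* was at 36.01, 48.1 and 32.9 RPKM with sg*Trp53* and 6.48, 45.2 and 35.9 RPKM with sg*Kmt2c*. The RPA genes stood at 15.2% and 16.6% of the sg*Trp53* mean in sg*Kmt2c* replicate 1, but sg*Kmt2c* replicate 2 was low for *Rpa2* and within the sg*Trp53* range for *Rpa1*. *Lig1*, the ligase, had the highest mean RPKM of the 4 and was at 39.2, 34.4 and 33.4 RPKM with sg*Trp53* and 12.2, 37.7 and 52.3 RPKM with sg*Kmt2c*. *Fen1*, a flap endonuclease, had the lowest and was at 4.21, 3.41 and 5.75 RPKM with sg*Trp53* and 1.52, 3.77 and 5.32 RPKM with sg*Kmt2c*. The log2 fold change was -1.02 for *Rpa2* (SE 0.621, adjusted p = 0.674, limma) and -0.28 for *Lig1*, and that of *Lig1* turned to 0.31 without sg*Kmt2c* replicate 1.

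The genes of deoxynucleotide supply did not share 1 order of lines. Ribonucleotide reductase joins a large subunit, RRM1, with a small subunit, RRM2, and makes deoxynucleotides from ribonucleotides. *Rrm1* was at 65.2, 65.5 and 74.9 RPKM with sg*Trp53* and 13.6, 60.2 and 92.1 RPKM with sg*Kmt2c*. *Rrm2* was at 83.1, 72.9 and 85.8 RPKM with sg*Trp53* and 84.9, 85.3 and 163 RPKM with sg*Kmt2c*. In sg*Kmt2c* replicate 1 the large subunit stood at 19.8% of the sg*Trp53* mean and the small subunit at 105%. The ratio of *Rrm2* to *Rrm1* was therefore 6.24 in that line and between 1.11 and 1.77 in the other 5. *Rrm2* was highest in sg*Kmt2c* replicate 3, and its log2 fold change was 0.39 (SE 0.288, adjusted p = 0.717, limma). *Rrm2b*, the p53-inducible small subunit that is no member, was at 5.32, 2.72 and 4.39 RPKM with sg*Trp53* and 6.42, 3.98 and 3.44 RPKM with sg*Kmt2c*, with a log2 fold change of 0.12. *Tyms*, thymidylate synthase, was at 103, 118 and 109 RPKM with sg*Trp53* and 23.05, 90.4 and 104 RPKM with sg*Kmt2c*. *Tk1*, the thymidine kinase of dividing cells and the gene with the lowest mean RPKM of the 4, was at 48.5, 41.9 and 46.3 RPKM with sg*Trp53* and 24.6, 55.6 and 42.2 RPKM with sg*Kmt2c*. *Tyms* stood at 20.9% of the sg*Trp53* mean in sg*Kmt2c* replicate 1 and *Tk1* at 54.02%.

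E2F1 and E2F2 are activating members of the E2F family. *E2f1* was at 14.3, 8.67 and 15.8 RPKM with sg*Trp53* and 4.66, 15.4 and 13.4 RPKM with sg*Kmt2c*. *E2f2* was at 4.22, 5.51 and 3.12 RPKM with sg*Trp53* and 5.60, 4.87 and 8.69 RPKM with sg*Kmt2c*. *E2f1* was lowest in sg*Kmt2c* replicate 1, whereas *E2f2* lay above all sg*Trp53* lines in that line and in replicate 3. The ratio of *E2f2* to *E2f1* was 1.20 in sg*Kmt2c* replicate 1 and between 0.197 and 0.646 elsewhere. *E2f2* had the highest log2 fold change of the 43 members, 0.47 (SE 0.310, 95% interval -0.27 to 1.21, adjusted p = 0.698 from limma).

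Levels between genes depend on the listed transcript length by which the reads were divided. For 4 members that length was under 50% of the longest annotated coding transcript: *Orc1* (443 bases against 4100), *Gins1* (339 against 1087), *Rfc5* (772 against 2796) and *Tyms* (663 against 3884). Their RPKM stand higher against other genes than a longer transcript would give. Ratios of RPKM between lines do not depend on that length. The log2 fold changes do, because 1 is added to each RPKM. At 4100 bases the sg*Trp53* mean of *Orc1* would be 4.75 RPKM, where the added 1 weighs more. Another listed gene overlapped 14 of the members, among them *Orc1*, *Gins2*, *Rfc5* and *Fen1*. As the use of strand in counting is not stated, their reads may not be told apart from those of the overlapping genes.

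A further 44 replication genes from a list that includes licensing inhibitors, clamp loader parts and chromatin assembly factors gave medians close to those of the members in each sg*Kmt2c* line. All 44 were tested, and their median log2 fold change was -0.52, with 4 above 0. The median stood at 31.8%, 89.0% and 112% of the sg*Trp53* mean in sg*Kmt2c* replicates 1, 2 and 3, and in replicate 1, 30 of the 44 were under 0.5 times the lowest sg*Trp53* line (13.4% of all genes). Without that line the median log2 fold change was 0.044. At an unadjusted p-value under 0.05, 1 gene was higher (3.25% of all genes) and 1 lower (5.34%), and 0 passed after adjustment. *Pold4*, a small subunit of polymerase delta, was the higher one, at 9.01, 8.88 and 11.3 RPKM with sg*Trp53* and 51.5, 25.04 and 11.3 RPKM with sg*Kmt2c* (log2 fold change 1.26, adjusted p = 0.575, limma). *Slbp*, which binds the stem-loop of histone transcripts, was the lower one, at 62.9, 73.4 and 70.9 RPKM with sg*Trp53* and 16.5, 44.1 and 50.3 RPKM with sg*Kmt2c* (log2 fold change -1.02, adjusted p = 0.576, limma).

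The 18 genes of S phase control had a median log2 fold change of -0.27. Their median stood at 54.6%, 77.2% and 106% of the sg*Trp53* mean in sg*Kmt2c* replicates 1, 2 and 3. Without sg*Kmt2c* replicate 1 the median log2 fold change was -0.043, against -0.044 over all genes. With all lines, at an unadjusted p-value under 0.05, 1 was higher (3.25% of all genes) and 2 were lower (5.34%). *Cdkn1a*, the p53 target that encodes the cyclin-dependent kinase inhibitor p21, was at 17.3, 7.54 and 36.1 RPKM with sg*Trp53* and 295, 217 and 261 RPKM with sg*Kmt2c*. All 3 sg*Kmt2c* lines lay far above all 3 sg*Trp53* lines, with a log2 fold change of 3.84 (SE 0.508, adjusted p = 0.0680, limma). *Skp2*, a subunit of the ubiquitin ligase that acts on p27, was at 29.9, 24.1 and 25.97 RPKM with sg*Trp53* and 7.01, 11.5 and 21.2 RPKM with sg*Kmt2c* (log2 fold change -1.08). *Tfdp2*, a dimer partner of E2F proteins, was at 35.6, 67.4 and 48.05 RPKM with sg*Trp53* and 17.9, 33.6 and 28.8 RPKM with sg*Kmt2c* (log2 fold change -0.88). The adjusted p-values of *Skp2* and *Tfdp2* were 0.528 and 0.552 (limma).

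The 20 mitosis genes, which act after replication, had a median log2 fold change of -0.56, close to that of the members. Their median stood at 46.4%, 68.8% and 98.0% of the sg*Trp53* mean in sg*Kmt2c* replicates 1, 2 and 3. At an unadjusted p-value under 0.05, 4 were lower (5.34% of all genes): *Ccnb2*, *Bub1b*, *Kif20a* and *Nusap1*, with log2 fold changes of -0.81, -0.80, -1.02 and -0.69. *Ccnb2*, a mitotic cyclin, was at 82.03, 96.7 and 72.8 RPKM with sg*Trp53* and 46.00, 50.3 and 45.1 RPKM with sg*Kmt2c* and had the lowest adjusted p-value of the 4, 0.328 with limma. Without sg*Kmt2c* replicate 1 the median of the mitosis genes was -0.24 and 3 genes were lower at that threshold (5.35% of all genes).

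**Figure D4:**
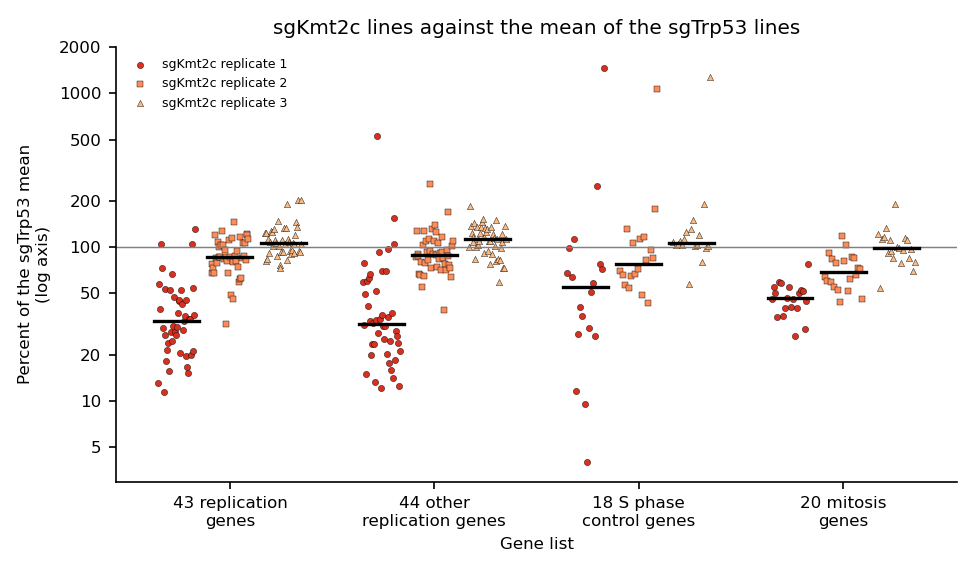
RPKM in each of the 3 sg*Kmt2c* lines as percent of the sg*Trp53* mean, on a log axis, for the 43 replication genes, 44 other replication genes, 18 S phase control genes and 20 mitosis genes. Each point is a gene and each bar the median of a list in a line. The bars of sg*Kmt2c* replicate 1 lie at 33.3%, 31.8%, 54.6% and 46.4%, the lowest of the 3 lines in each list.

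**Figure D5:**
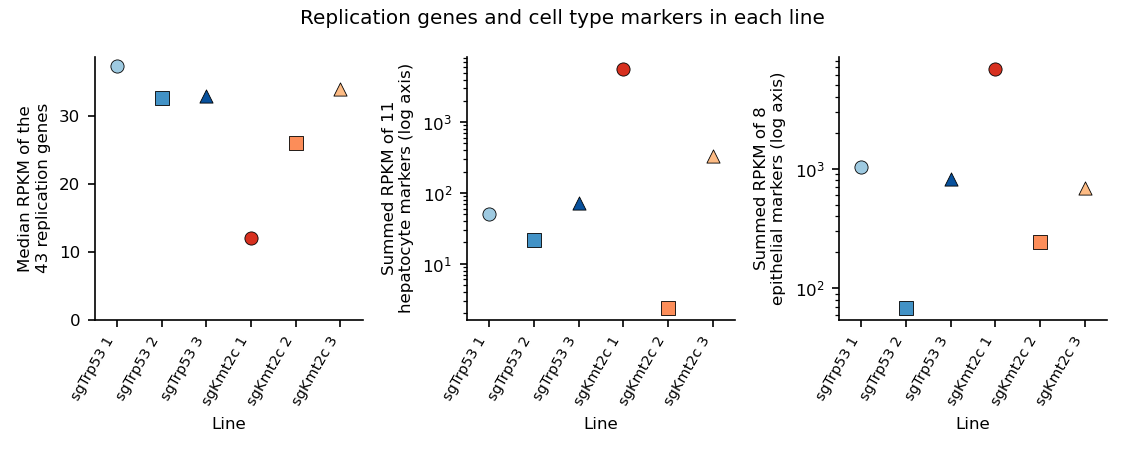
Median RPKM of the 43 replication genes (left, linear axis from 0), and the summed RPKM of 11 hepatocyte markers (middle) and of 8 epithelial markers (right, both on log axes), with 1 point per line. The lowest median of the replication genes, 12.1 RPKM, and the highest marker sums, 5649 and 6808 RPKM, stand in the same line, sg*Kmt2c* replicate 1.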

How the data were processed

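RNA-seq of 6 mouse liver tumor cell lines was used, 3 per genotype, grouped and numbered by the sample labels. The authors used Trimmomatic for trimming, STAR for alignment to GRCm38 and HTSeq for counting, and the values they deposited are RPKM, called FPKM in their methods. The deposited table also lists 1 transcript length per gene, in bases. It has 21065 entries, 209 of them without values, and 6 further sample columns that were not used. The deposited table of the authors' own comparison, with mean counts, fold changes and p-values, was not used.

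RPKM times length gave whole reads for 100% of values (largest deviation 1.34e-05 of a read). Replicates differed by a chi-square per gene of 26.5 to 80.3, far beyond sampling noise, so none was counted as a copy.

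limma 3.58.1 in R 4.3.3 (lmFit, eBayes with trend) was fitted on log2(RPKM + 1) with a pseudocount of 1, for the 11617 genes that reached an RPKM of 1 in 3 or more of the 6 libraries, with genotype as the only term and adjustment over all genes. As the deposited values are RPKM, the main test was on a log scale, and limma voom on the recovered reads was an alternative. Exact permutation tests were two-sided. The script was tested on simulated data. Alternatives changed the pseudocount to 0.1, the filter, the scaling, the moderation, the unit, the pairing and the lines included.

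Members, roles and gene lists were chosen with earlier results of these data known. All 43 members may be named by role. Values per line are given for members with an unadjusted p-value under 0.05, members whose lines do not overlap, the highest and lowest member of each role by mean RPKM, and some others chosen after their values were seen. Of the other lists, genes with an unadjusted p-value under 0.05, *Rrm2b* and *Cdkn1a* are named. Promoters are from RefSeq, coordinates of genes from the deposited table.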

Additional observations from a re-analysis of the deposited data

How the results depend on the processing

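Of 344 values of single members under 8 alternatives that kept all 6 lines, 340 kept their direction and none passed adjustment. The exceptions were *Orc5* in TPM (-0.0089) and with sg*Kmt2c* replicates 2 and 3 averaged (-0.087), *Pole2* with those averaged (-0.042), and *Gins1* under median-of-ratios scaling (0.052). Leaving out sg*Kmt2c* replicate 1 turned 16 members and leaving out other lines turned 5 more values, and the cause was not tested. Over the 6 fits with a line left out, log2 fold changes ranged over -0.35 to 0.25 for *Cdt1*, -0.58 to 0.18 for *E2f1*, -0.63 to 0.032 for *Fen1*, -0.32 to 0.24 for *Gins1*, -0.69 to 0.31 for *Lig1*, -0.88 to 0.19 for *Mcm2*, -0.96 to 0.22 for *Mcm5*, -1.23 to 0.25 for *Mcm6*, -0.43 to 0.070 for *Mcm7*, -0.52 to 0.0075 for *Orc2*, -0.13 to 0.23 for *Orc5*, -0.73 to 0.18 for *Pola1*, -0.68 to 0.068 for *Pold1*, -0.14 to 0.69 for *Pole2*, -0.51 to 0.13 for *Prim2*, -1.25 to 0.064 for *Rpa1*, -1.22 to 0.12 for *Rrm1*, -0.095 to 0.29 for *Rrm2b* and -0.48 to 0.090 for *Tk1*.

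The count of genes past an adjusted p of 0.05 (15 with all lines) was 6 with a pseudocount of 0.1, 5 with no filter, 4 with voom, and 0 both with sg*Kmt2c* replicates 2 and 3 averaged (1031 at an unadjusted p under 0.05) and with the replicate block (1085). It was 0 to 7 with a line left out (497 to 1448 at an unadjusted p under 0.05), 7 without sg*Kmt2c* replicate 1. The deviations of same-numbered libraries correlated with r = 0.19, 0.40 and 0.032, not all over 0.1, so the replicate block joins lines that share only a number, and only sg*Trp53* replicates 1 and 2 correlated best with their own number. The count of lower members at an unadjusted p under 0.05 (1) was 2 in TPM, where *Gins4* joined *Pole*, and 0 to 9 with a line left out. The 9 came without sg*Kmt2c* replicate 3 (*Pole*, *Rfc4*, *Prim1*, *Mcm10*, *Rpa2*, *Rfc5*, *Gins2*, *Rfc3* and *Orc3*, adjusted p 0.229 to 0.382 by limma). Without any one of the sg*Trp53* lines or without sg*Kmt2c* replicate 1 it was 0, and without sg*Kmt2c* replicate 2 it was 1, *Gins4* in place of *Pole*. The count of higher members was 0 to 1 with a line left out. The median over members lay between -0.88 and -0.065 and stayed negative. Non-overlapping higher members numbered 1, *Rrm2*, under median-of-ratios scaling. That scaling was planned for the fits, but its use for this count was added after seeing the data. Depth limits the lowest values, such as the 12 reads of *Orc1* in sg*Kmt2c* replicate 1.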
